A study of Rattus norvegicus with 6 samples.

Results

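Lysosomal enzymes and membrane proteins were examined in the renal cortex of rats given the flame retardant 2,2-bis(bromomethyl)-1,3-propanediol (BBMP) and of rats given its vehicle. The module is a list of 42 genes that covers the cathepsins and other lysosomal proteases, glycosidases, sulfatases, enzymes and carriers of lipids, proteins of the lysosomal membrane, and the transcription factor Tfeb. Its members were found by matching the RefSeq transcript of each array probe to the gene's rat symbol, and each gene was read from its brightest probe. Of the 42 genes, 40 were matched and tested, among 31582 genes or sequences tested in all, and Naglu and Ids were not analysed here. All 6 animals were male Sprague-Dawley (Crl:CD(SD)) rats bought at an age of 5 weeks, and no genetic change is named for any of them. The 3 control animals received corn oil for 4 weeks. The 3 BBMP animals received the compound at 1000 mg/kg/day for 4 weeks. Total RNA from the cortex of each animal was read on 1 one-colour Agilent array, and the comparison asks which transcripts differed after treatment.

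The lysosome is the acidic compartment in which cells break down proteins, glycans and lipids. Its soluble enzymes are made in the endoplasmic reticulum, tagged with mannose 6-phosphate and carried to the compartment by receptors, while a proton pump, the V-ATPase, keeps its interior acidic. In the cortex the proximal tubule takes up filtered protein by endocytosis through megalin and cubilin and digests it in abundant lysosomes. TFEB is a transcription factor that switches on many lysosomal genes through a short E-box sequence in their promoters, known as the CLEAR element, when it enters the nucleus.

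Because TFEB acts through this sequence, the promoters of the members were searched for it, in the 300 bases from 250 before to 50 after the start of each gene (RefSeq, GRCr8). A promoter was held for 35 of the 42 members. The E-box CACGTG, searched on both strands, stood in 8 of them (22.9%), compared with 6.42% of all 33469 promoters of the same length. Members were counted by gene and the background by promoter. In the lists of related genes examined below, the share ran from 14.3% (V-ATPase subunits) to 37.5% (genes that sort enzymes to lysosomes). The longer core TCACGTG, which contains that E-box, stood in 7 of the 35 (20.0%) and in 3.20% of all promoters. The full palindromic CLEAR element of 10 bases, which contains both, stood in 0 of the 35 and in 0.233% of all promoters. It stood in 3 of 16 genes that sort enzymes to lysosomes and in 2 of 22 other lysosomal genes. Among the members, Lamp1 held 5 copies of CACGTG, Ctsd, Cln3 and Mcoln1 held 2 each, and Gaa, Glb1, Idua and Cd63 held 1 each. The stretches that carry the copies upstream of the start are shown 5′ to 3′ along the gene's own strand, with CACGTG in capitals. Those of Lamp1, Ctsd and Cln3 hold more than 1 copy and show how differently the copies are spaced. Cd63 was the holder without TCACGTG.
Lamp1, chr16:83075081-83075261, minus strand: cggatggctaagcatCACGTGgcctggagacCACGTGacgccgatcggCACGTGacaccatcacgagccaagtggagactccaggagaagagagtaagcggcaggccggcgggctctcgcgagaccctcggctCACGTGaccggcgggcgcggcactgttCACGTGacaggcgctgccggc
Ctsd, chr1:206968822-206968993, minus strand: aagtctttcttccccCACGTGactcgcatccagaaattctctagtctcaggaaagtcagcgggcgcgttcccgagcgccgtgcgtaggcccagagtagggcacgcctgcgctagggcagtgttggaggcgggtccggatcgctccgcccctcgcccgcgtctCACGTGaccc
Cln3, chr1:190597947-190598010, minus strand: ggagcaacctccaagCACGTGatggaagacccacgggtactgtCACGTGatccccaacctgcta
Mcoln1, chr12:6358221-6358256, plus strand: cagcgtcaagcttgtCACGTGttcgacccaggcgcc
Gaa, chr10:105028273-105028308, plus strand: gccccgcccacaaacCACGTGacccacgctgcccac
Glb1, chr8:122963603-122963638, plus strand: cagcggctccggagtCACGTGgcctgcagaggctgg
Cd63, chr7:1921939-1921974, plus strand: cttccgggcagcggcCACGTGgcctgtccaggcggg

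Counted from the start of the gene, the 5 CACGTG copies of Lamp1 began at -183, -167, -150, -65 and -38. Those of Ctsd began at -157 and -10, and those of Cln3 at -66 and -38. The copy of Idua began at -3, across the start, and Mcoln1 had 1 copy at -22 and 1 copy inside the transcript. These matches describe the letters of the window and are not measured binding sites.

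Values below are normalized log2 signals, on which 0 is the 75th percentile of that array, and differences are BBMP minus control on the log2 scale. A gene was called changed where limma's adjusted p was under 0.05. The share of probes well above background ran from 67.2% to 72.7% over the arrays. That 75th percentile was 938 to 946 units of processed signal in control and 1239 to 1255 in BBMP samples. Controls shared slide 1 and scan 1 while BBMP samples shared slide 2 and scan 2, and an effect of slide or scan cannot be told apart from one of treatment. Control replicate 3 and all BBMP arrays lay in row 1 of their slides, and control replicates 1 and 2 in row 2. The tissue was whole cortex, in which fewer cells of a type and less RNA per cell cannot be told apart.

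Among the lysosomal genes, acid ceramidase (Asah1), beta-mannosidase (Manba) and the cholesterol transporter Npc1 fell in the BBMP group, while acid sphingomyelinase (Smpd1) and Tfeb rose. The falls of Manba and Npc1 were called on the brightest probe alone, and no other probe of either gene was called. The fall of Asah1 was 1.64-fold, and the other 4 changes were between 1.25-fold and 1.36-fold. Thus 5 of the 40 tested members (12.5%) were called, against 17.9% of all genes tested. Of the 5, 2 were higher and 3 lower, against 10.2% and 7.68% of all genes. The groups did not overlap for 14 of the 40 members, 8 of them higher and 6 lower in BBMP. The share over all genes was 43.5%, with 24.9% higher and 18.6% lower. An unadjusted limma p under 0.05 was reached by 12 of the 40 members, against 11541 of the 31582 genes tested. The latter is the background for counts by unadjusted p below. The members as a list were therefore called no more often than the array as a whole. Their median difference was 0.021, against 0.049 for all genes, with 23 members above 0 and 17 below. Their median size of difference, disregarding sign, was 0.15, against 0.21 for all genes. Of the 40 members, 39 were well above background on all 6 arrays. The exception was Galns, which was above background on 2 of the 3 control arrays.

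**Figure D1:**
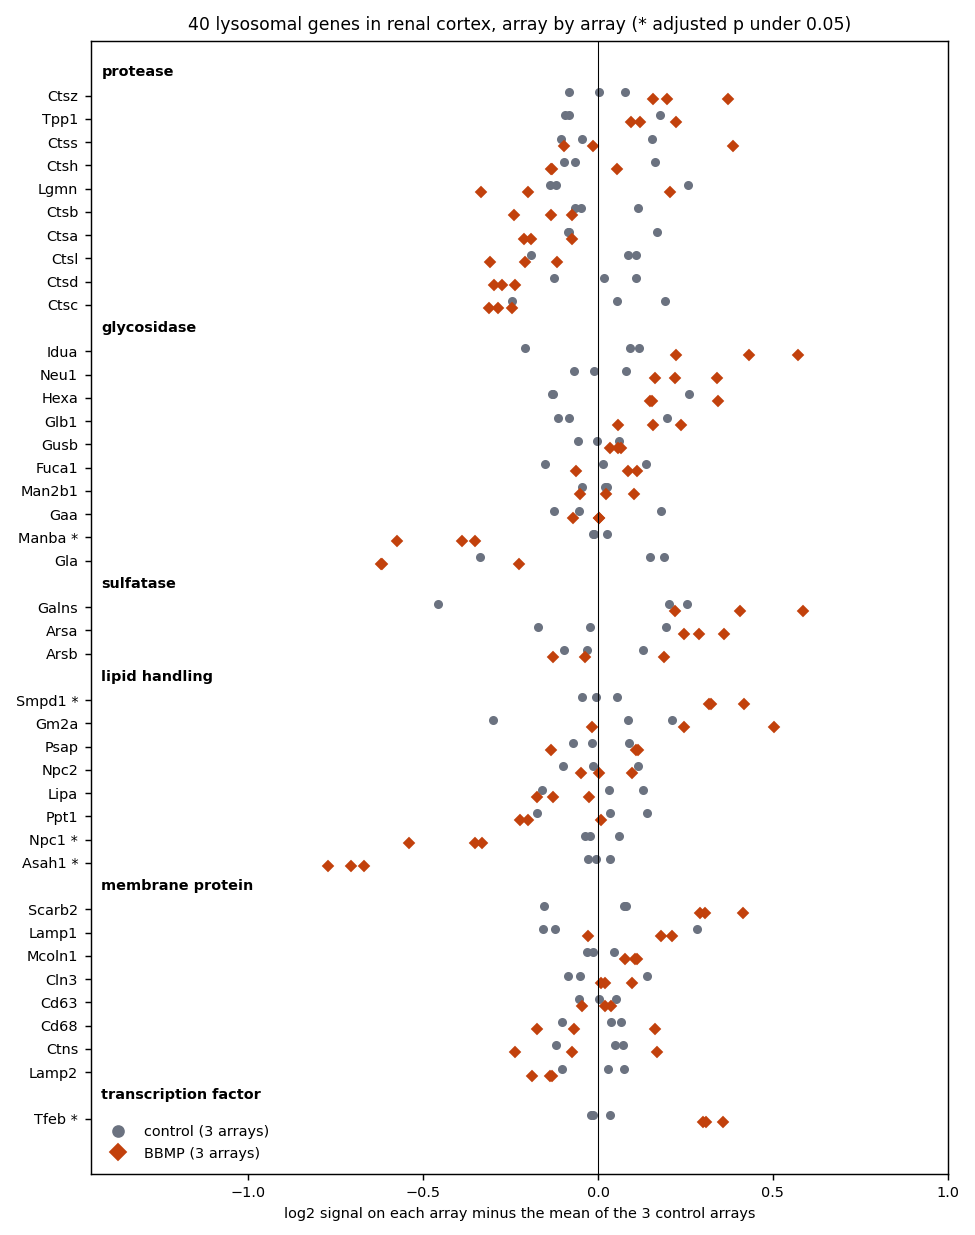
Each row is a lysosomal gene, grouped by role, and each point is 1 array, plotted as its log2 signal minus the mean of the 3 control arrays (circles control, diamonds BBMP, asterisks adjusted p under 0.05). The BBMP points of Asah1, Manba and Npc1 lie to the left of all their control points and those of Smpd1 and Tfeb to the right, while for most other genes the groups overlap.

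Enzymes of sphingolipid breakdown held the largest change among the called members, and the 2 called enzymes of this pathway moved in opposite directions. Asah1 encodes acid ceramidase, which splits ceramide into sphingosine and a fatty acid. It read 1.30, 1.23 and 1.26 on the control arrays and 0.59, 0.55 and 0.49 on the BBMP arrays. All 3 BBMP arrays were thus below all 3 control arrays, and each group spanned far less than the gap between them. The difference was -0.72 ± 0.059 (SE), with a 95% interval from -0.86 to -0.57 and a limma adjusted p of 0.0107. Asah1 had a single probe. Smpd1 encodes acid sphingomyelinase, which makes ceramide from sphingomyelin, the step before acid ceramidase. It read 4.82, 4.78 and 4.88 on the control arrays and 5.15, 5.25 and 5.15 on the BBMP arrays, with no overlap. It rose by 0.35 ± 0.063 (SE), which is 1.28-fold, with a 95% interval from 0.20 to 0.51 and a limma adjusted p of 0.0214. It too had a single probe.

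Npc1 encodes the transporter in the lysosomal membrane that hands cholesterol out of the lysosome. It read 1.67, 1.77 and 1.68 on the control arrays and 1.36, 1.38 and 1.17 on the BBMP arrays. The groups did not overlap, and BBMP replicate 3 was the lowest. The difference on this probe was -0.41 ± 0.079 (SE), which is 1.33-fold, with a 95% interval from -0.60 to -0.21 and a limma adjusted p of 0.0255. Npc1 had 6 further probes, all dimmer, and none was called. Their differences were 0.45, 0.24, -0.0075, -0.013, -0.098 and -0.12. The probe at 0.45 was well above background on 1 of the 3 control arrays and was tested only because it was on all 3 BBMP arrays. The mean of all 7 probes differed by 0.0055 (adjusted p = 0.964), and the mean of the 6 that were above background on all 6 arrays by -0.069 (adjusted p = 0.569). The fall of Npc1 was thus called on its brightest probe alone. Npc2, the soluble protein that passes cholesterol to Npc1, had a difference of 0.018 ± 0.081 (SE), and its groups overlapped.

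The other lipid handling members were not called. Gm2a, the activator protein that presents GM2 ganglioside to hexosaminidase, read -0.82, -0.31 and -0.44 in control and -0.02, -0.54 and -0.28 in BBMP samples. Its difference of 0.24 ± 0.19 (SE) was smaller than the spread within either group. Ppt1, which removes fatty acids from proteins, read 1.38, 1.59 and 1.69 in control and 1.33, 1.35 and 1.56 in BBMP samples, a difference of -0.14 ± 0.11 (SE). Lipa, the acid lipase for cholesteryl esters and triglycerides, read 3.05, 3.24 and 3.34 against 3.08, 3.04 and 3.18, a difference of -0.11 ± 0.094 (SE). The groups overlapped for both. Psap, the precursor of the saposins that assist sphingolipid enzymes, differed by 0.029 ± 0.094 (SE). Over the 8 lipid handling members, 4 differences were above 0 and 4 below, with a median of -0.046.

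Tfeb itself was expressed at a higher level in the BBMP group. It read -0.75, -0.75 and -0.70 on the control arrays and -0.37, -0.42 and -0.43 on the BBMP arrays. The arrays within each group lay close together, and the groups did not overlap. The difference was 0.32 ± 0.055 (SE), which is 1.25-fold, with a 95% interval from 0.19 to 0.46 and a limma adjusted p of 0.0200. A second, dimmer Tfeb probe read -2.56, -2.76 and -2.50 in control and -2.00, -2.19 and -2.10 in BBMP samples. It was also called, at 0.51 ± 0.095 (SE) and a limma adjusted p over probes of 0.0236. These values are of the transcript, and the place of the protein in the cell was not measured.

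None of the 8 members whose promoter holds CACGTG was called by limma, against 17.9% of all genes tested, and 8 genes are few for that comparison. Of these members 2, Ctsd and Idua, had an unadjusted p under 0.05, against 11541 of the 31582 genes tested. The differences of the 8 ran from -0.27 for Ctsd to 0.41 for Idua, with 6 above 0, 2 below and a median of 0.070. Of the 25 tested members with a promoter and no CACGTG, 4 were called (16%), near the share over all genes. Of these 25, 13 were above 0 and 12 below, with a median of 0.018. Asah1, the called member with the largest change, had no promoter in the RefSeq table. For Lamp1, with its 5 copies, the control arrays read 5.67, 5.64 and 6.08 and the BBMP arrays 6.01, 5.97 and 5.77. Control replicate 3 was above every BBMP array and the other controls were below them, so the groups overlapped, with a difference of 0.12 ± 0.14 (SE).

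**Figure D2:**
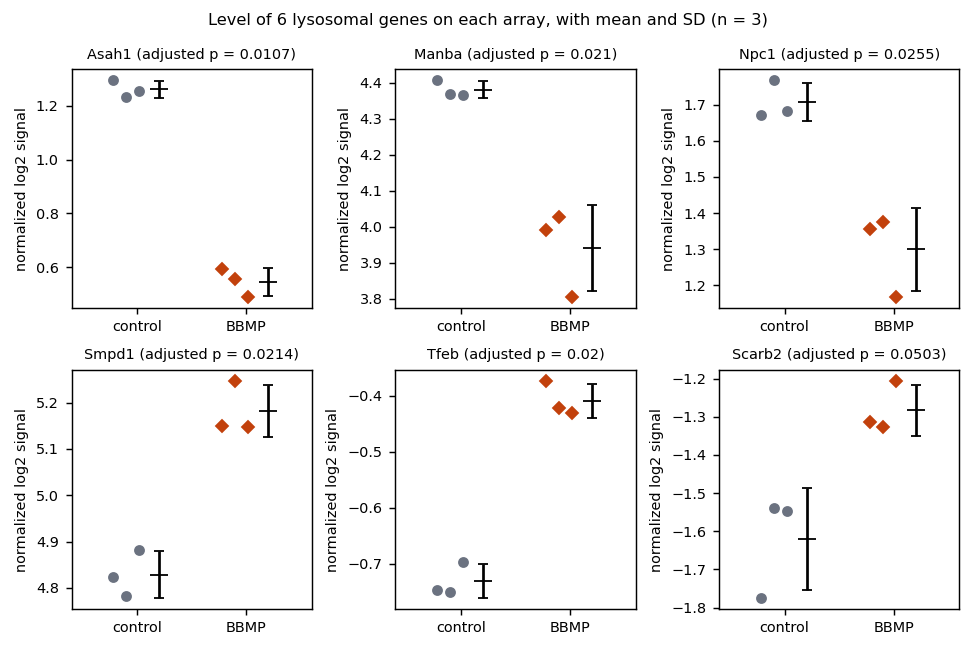
Normalized log2 signal of 6 lysosomal genes on each array (circles control, diamonds BBMP), with the mean and SD of the 3 arrays of each group in black and limma's adjusted p above each panel; each panel has its own vertical scale. The groups are separate in all 6 panels, and Scarb2, at an adjusted p of 0.0503, narrowly missed the threshold.

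Among the glycosidases, which trim sugars from glycoproteins, glycolipids and glycosaminoglycans, Manba was called. It removes beta-linked mannose in the last step of N-glycan breakdown. It read 4.41, 4.37 and 4.36 on the control arrays and 3.99, 4.03 and 3.81 on the BBMP arrays, with no overlap and with BBMP replicate 3 lowest. The fall was -0.44 ± 0.077 (SE), which is 1.36-fold, with a 95% interval from -0.63 to -0.25 and a limma adjusted p of 0.0210. Its other probe read -0.76, -0.92 and -0.85 in control and -1.14, -0.97 and -0.45 in BBMP samples. On that dimmer probe BBMP replicate 3 was the highest of all 6 arrays and the difference was -0.012 ± 0.18 (SE), so the fall was not seen there. The mean of both probes differed by -0.23 (adjusted p = 0.111).

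Neu1, the sialidase, read 2.45, 2.50 and 2.60 in control and 2.74, 2.68 and 2.86 in BBMP samples. The BBMP arrays were all higher, but the difference of 0.24 ± 0.076 (SE) had an adjusted p of 0.0784. Its other probe gave 0.32. Idua, the iduronidase of heparan and dermatan sulfate breakdown, read -3.48, -3.80 and -3.50 in control and -3.02, -3.37 and -3.17 in BBMP samples. The groups were again separate, with a difference of 0.41 ± 0.13 (SE) and an adjusted p of 0.0813. Idua lay in the third lowest of 10 brightness classes, in which all genes had a median difference of 0.12. Gla, alpha-galactosidase A, read -2.83, -2.34 and -2.30 in control and -2.72, -3.11 and -3.11 in BBMP samples. Control replicate 1 fell below BBMP replicate 1, so the groups overlapped, and the difference of -0.49 ± 0.18 (SE) had an adjusted p of 0.116.

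The remaining glycosidases had overlapping groups. Hexa, the alpha subunit of beta-hexosaminidase, read 3.47, 3.47 and 3.86 in control and 3.75, 3.94 and 3.75 in BBMP samples, a difference of 0.21 ± 0.13 (SE). Glb1, beta-galactosidase, read 4.88, 4.84 and 5.16 against 5.12, 5.20 and 5.02, a difference of 0.15 ± 0.11 (SE). In both, control replicate 3 stood with the BBMP arrays and apart from the other controls. Gusb, beta-glucuronidase, read 0.17, 0.29 and 0.22 against 0.28, 0.26 and 0.29, a difference of 0.052 ± 0.059 (SE). Fuca1 (alpha-fucosidase), Man2b1 (alpha-mannosidase) and Gaa (acid alpha-glucosidase) had differences of 0.045, 0.025 and -0.022. Over the 10 tested glycosidases, 7 differences were above 0 and 3 below, with a median of 0.048. That majority turned to 4 above and 6 below when the arrays were scaled to their medians, and the same counts were found with slide row as a covariate.

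The 3 tested sulfatases, which remove sulfate groups from glycolipids and glycosaminoglycans, were not called by limma, and 1 had an unadjusted p under 0.05. That 1, Arsa, arylsulfatase A, read 0.98, 1.13 and 1.35 in control and 1.44, 1.40 and 1.52 in BBMP samples. The BBMP arrays were all higher, with control replicate 3 close beneath them, and the difference was 0.30 ± 0.11 (SE; adjusted p = 0.102). Its 2 other probes gave 0.36, with a limma adjusted p over probes of 0.0492, and 0.33. Without control replicate 3 the Arsa difference was 0.40 with an adjusted p of 0.0466, and in slide row 1 alone it was 0.10. Galns, the sulfatase for keratan sulfate and chondroitin 6-sulfate, read -5.39, -4.68 and -4.73 in control and -4.53, -4.35 and -4.71 in BBMP samples, a difference of 0.40 ± 0.22 (SE). Its signal was near background, and BBMP replicate 3 overlapped the controls. Arsb, arylsulfatase B, differed by 0.0082 ± 0.11 (SE).

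None of the 10 proteases was called by limma. Of the 10, 2 (Ctsd and Ctsz) had an unadjusted p under 0.05, against 11541 of the 31582 genes tested. Differences were below 0 for 7 of the 10, with a median of -0.13. Without control replicate 3 the split was 5 and 5, with a median of -0.032. Ctsd, cathepsin D, the main aspartic protease of the lysosome, read 6.61, 6.75 and 6.84 in control and 6.46, 6.50 and 6.44 in BBMP samples. All BBMP arrays were lower, and the difference of -0.27 ± 0.078 (SE) had an adjusted p of 0.0636. It passed the threshold under 4 of the 20 alternative settings, which included quantile normalization (-0.29) and scaling to the median (-0.35). Ctsb, cathepsin B, read 8.55, 8.56 and 8.73 against 8.48, 8.54 and 8.37, again with no overlap, and differed by -0.15 ± 0.081 (SE; adjusted p = 0.236). Ctsz, cathepsin Z, went the other way. It read -1.22, -1.13 and -1.06 in control and -0.94, -0.98 and -0.76 in BBMP samples without overlap, and differed by 0.24 ± 0.084 (SE; adjusted p = 0.0987).

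Ctsc, cathepsin C or dipeptidyl peptidase I, read 4.68, 4.38 and 4.82 in control and 4.31, 4.34 and 4.38 in BBMP samples, a difference of -0.28 ± 0.12 (SE). Ctsl, cathepsin L, read 7.08, 6.80 and 7.10 against 6.79, 6.88 and 6.68, a difference of -0.21 ± 0.11 (SE). In both, control replicate 2 lay within or at the edge of the BBMP range and the other controls above it. Ctsa, the carboxypeptidase that also protects Neu1 and Glb1, read 8.40, 8.40 and 8.65 against 8.29, 8.41 and 8.27, a difference of -0.16 ± 0.094 (SE). Tpp1, the tripeptidyl peptidase, read 2.77, 2.76 and 3.03 against 3.08, 2.95 and 2.97, a difference of 0.15 ± 0.095 (SE). Control replicate 3 was the highest control in both and overlapped the BBMP arrays for Tpp1. Ctsh, an aminopeptidase, read 6.71, 6.74 and 6.97 against 6.68, 6.86 and 6.67. Lgmn, the asparaginyl endopeptidase legumain, read 6.34, 6.32 and 6.72 against 6.26, 6.67 and 6.12. Ctss, the cathepsin of antigen-presenting cells, read 2.16, 2.42 and 2.22 against 2.17, 2.25 and 2.65. Their differences of -0.071, -0.11 and 0.092 were all smaller than the SD of the BBMP arrays.

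None of the 8 membrane proteins was called by limma, and 1 had an unadjusted p under 0.05. That was Scarb2 (LIMP-2), which carries beta-glucocerebrosidase to the lysosome. It read -1.77, -1.54 and -1.55 on the control arrays and -1.31, -1.33 and -1.21 on the BBMP arrays. The groups did not overlap, control replicate 1 was the lowest, and the difference was 0.34 ± 0.088 (SE; adjusted p = 0.0503). It passed the threshold under 5 of the 20 alternatives, with adjusted p-values from 0.0426 to 0.289 over all of them. Mcoln1, the calcium channel mucolipin 1, read 3.69, 3.71 and 3.77 against 3.83, 3.80 and 3.83, without overlap and with a difference of 0.098 ± 0.055 (SE; adjusted p = 0.254). With normexp background correction the difference of Mcoln1 was 0.25 (adjusted p = 0.0179). Lamp2, with Lamp1 a principal glycoprotein of the lysosomal membrane, read 2.73, 2.91 and 2.86 against 2.70, 2.64 and 2.70. Its BBMP arrays were all lower, by a mean of -0.15 ± 0.070 (SE; adjusted p = 0.172). Cln3 (battenin), Ctns (the cystine exporter), Cd63 (a tetraspanin) and Cd68 (macrosialin, abundant in macrophages) had differences between -0.047 and 0.042.

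Where a gene had several probes, they could be set side by side. Of the 40 members 17 had several tested probes, with 25 probes besides the brightest. The other probe differed in the same direction as the brightest in 21 of the 25 and in the opposite direction in 4. The opposite ones belonged to Npc1 (2 probes, 1 of them above background on 1 of the 3 control arrays), Ctsa and Ctns. Another probe was called for Tfeb and Arsa, in the direction of the brightest probe, and none was called in the opposite direction.

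**Figure D3:**
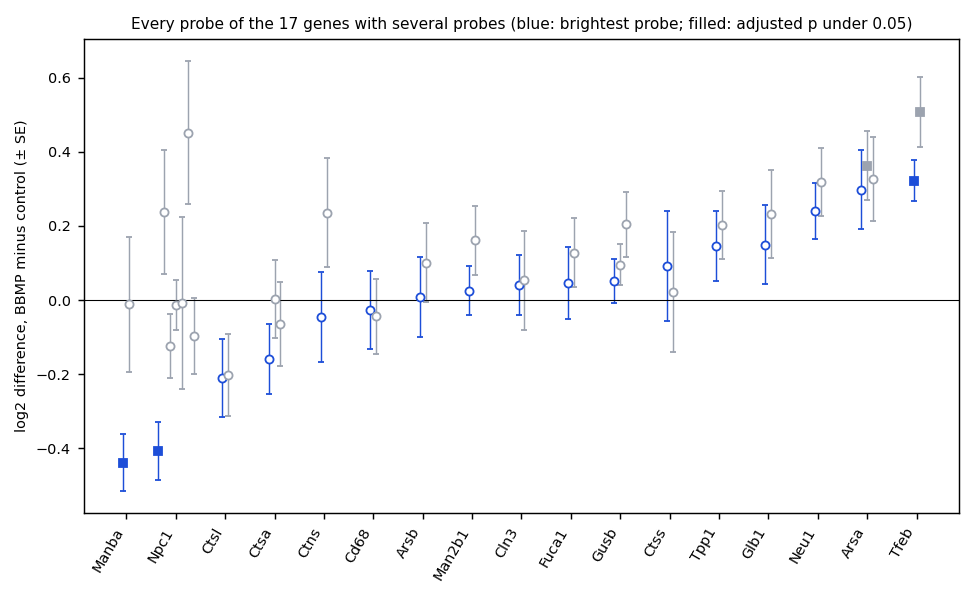
Log2 difference (BBMP minus control, with its SE) for every probe of the 17 members with several tested probes; the brightest probe of each gene is blue and the others grey, and filled squares have an adjusted p under 0.05 over all probes. Both Tfeb probes are filled and above 0, whereas the brightest probes of Manba and Npc1 stand below 0 with their other probes nearer to 0 or above it.

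The controls differed among themselves in a way that touched many members. Control replicate 3 was the highest of the controls for 27 of the 40 members (67.5%), against 38.2% of all genes. Control replicate 1 was the lowest for 23 members (57.5%), against 36.8% of all genes. With control replicate 3, the array in slide row 1, as the only control, the median over members was -0.095, against 0.031 for all genes. In that comparison of 1 control with 3 BBMP arrays the called genes had similar values: -0.71 for Asah1, -0.42 for Manba, -0.38 for Npc1, 0.30 for Smpd1 and 0.29 for Tfeb. No gene on the array was called there, against 7161 at an unadjusted limma p under 0.05, of which 9 were members.

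Each of the 6 fits that left out 1 array called fewer genes in all, from 3 without BBMP replicate 2 to 4018 without control replicate 3, against 5647 as reported. Asah1 was called in 5 of the 6 fits that left out 1 array, and without BBMP replicate 2 its adjusted p was 0.0523. Manba was called in 2 of the 6, those without control replicate 3 and without BBMP replicate 3. Its adjusted p ranged from 0.0471 to 0.0631. Tfeb and Smpd1 were called in 1 of the 6, that without control replicate 3, with adjusted p-values from 0.0402 to 0.0679 and from 0.0399 to 0.0707. Npc1 was called in 0 of the 6, with adjusted p-values from 0.0536 to 0.0748. The differences themselves moved little over these fits, from -0.74 to -0.69 for Asah1, from -0.48 to -0.37 for Manba, from -0.45 to -0.34 for Npc1, from 0.32 to 0.38 for Smpd1 and from 0.30 to 0.34 for Tfeb.

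**Figure D4:**
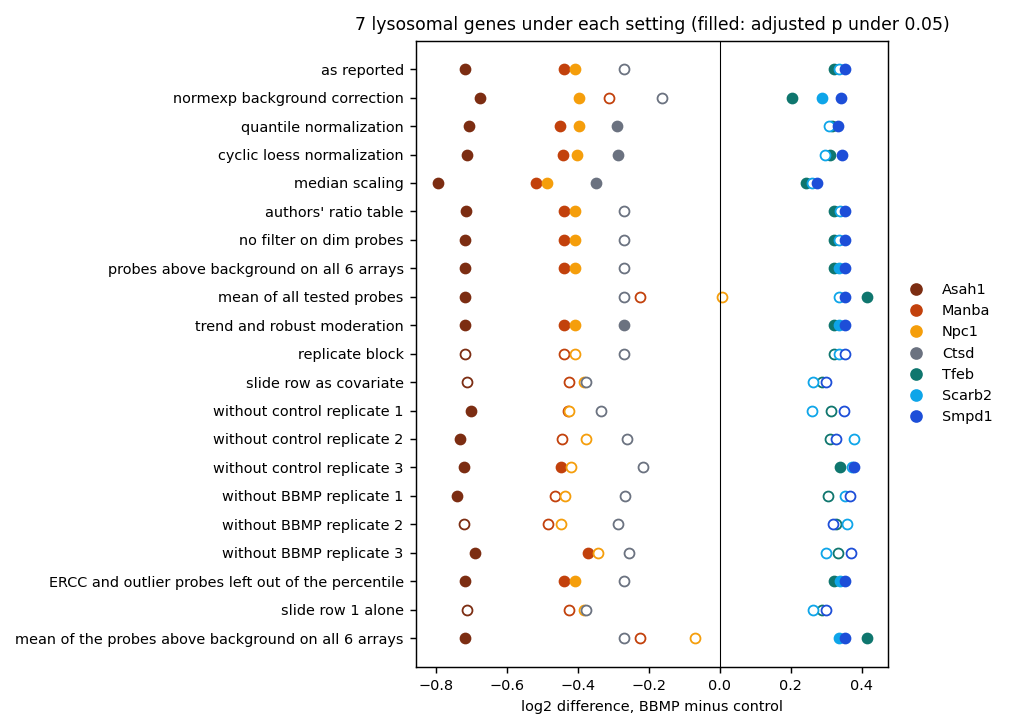
Log2 difference (BBMP minus control) of the 5 called genes, Scarb2 and Ctsd as reported and under each of 20 other settings, 1 setting per line; filled points have an adjusted p under 0.05. Each gene keeps its side of 0 throughout, except Npc1 with the mean of all its tested probes (0.0055), 1 of them not above background on all control arrays, while the number of filled points differs widely between settings.

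Genes that work with the members were examined from lists of 99 further genes, of which 88 were tested. Of these 12 were called (13.6%, against 17.9% of all genes), 7 higher and 5 lower, and the median difference was -0.0048. Among 28 other lysosomal enzymes and membrane proteins, 5 were higher and 1 lower (21.4% called, against 17.9% of all genes). Pld3, a lysosomal exonuclease of the phospholipase D family, rose 1.31-fold (0.39 ± 0.085, SE; adjusted p = 0.032). It read -0.06, -0.13 and 0.14 in control and 0.41, 0.34 and 0.38 in BBMP samples, without overlap and with control replicate 3 the highest control. The call of Pld3 was lost with median scaling (adjusted p = 0.0526) and without the filter on dim probes (adjusted p = 0.0521).

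For the V-ATPase, the proton pump of the lysosome, 0 of 16 subunits were called. An unadjusted limma p under 0.05 was found for 11541 of all 31582 genes and for 6 of these 16 subunits. The smallest p-values were those of Atp6v1a, the catalytic subunit, at -0.15 ± 0.054 (SE; adjusted p = 0.101) and of the accessory subunit Atp6ap1 at -0.16 ± 0.059 (SE; adjusted p = 0.104). With the mean of its probes the difference of Atp6v1a was 0.099 (adjusted p = 0.364). With median scaling both were called, at -0.23 (adjusted p = 0.0384) and -0.24 (adjusted p = 0.0407), and both were called with trend and robust moderation. Among 14 genes that sort enzymes to lysosomes, 1 was lower and 0 were higher (7.14% called, against 17.9% of all genes). Vps35, the core subunit of the retromer that returns sorting receptors, read 3.65, 3.69 and 3.73 in control and 3.36, 3.38 and 3.28 in BBMP samples. It fell 1.27-fold (adjusted p = 0.0204), and its other probe gave -0.48. Vps29, another retromer subunit, differed by -0.21 ± 0.056 (SE; adjusted p = 0.0532) and was not called.

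The TFEB family and the nutrient-sensing complexes on the lysosome had 1 higher and 1 lower of 12 genes. That was 16.7% called, against 17.9% of all genes. Lamtor5, a subunit of the Ragulator scaffold, rose 1.42-fold (0.50 ± 0.097, SE; adjusted p = 0.0252), and Rraga, the RagA GTPase that Ragulator anchors, fell 1.30-fold (-0.38 ± 0.077, SE; adjusted p = 0.0279). Among 18 autophagy genes, 1 was higher and 2 were lower (16.7% called, against 17.9% of all genes). Sqstm1, the cargo receptor p62, rose 1.33-fold, from 4.37, 4.47 and 4.49 to 4.96, 4.80 and 4.80 (adjusted p = 0.0218). Its 4 other probes gave 0.54, 0.49, 0.38 and 0.16. Atg14 and Becn1, subunits of the lipid kinase complex that starts autophagosomes, fell by 0.33 (adjusted p = 0.0192) and 0.26 (adjusted p = 0.0418) on the log2 scale. The other tested probe of Atg14 was above background on 0 of the 3 control arrays, and Atg14 had no second probe measured in both groups. The other probe of Becn1 gave -0.15 and was not called. The call of Becn1 was lost with normexp (-0.17, adjusted p = 0.105), without the filter on dim probes (adjusted p = 0.0608) and with the mean of its probes (-0.20, adjusted p = 0.0876).

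**Figure D5:**
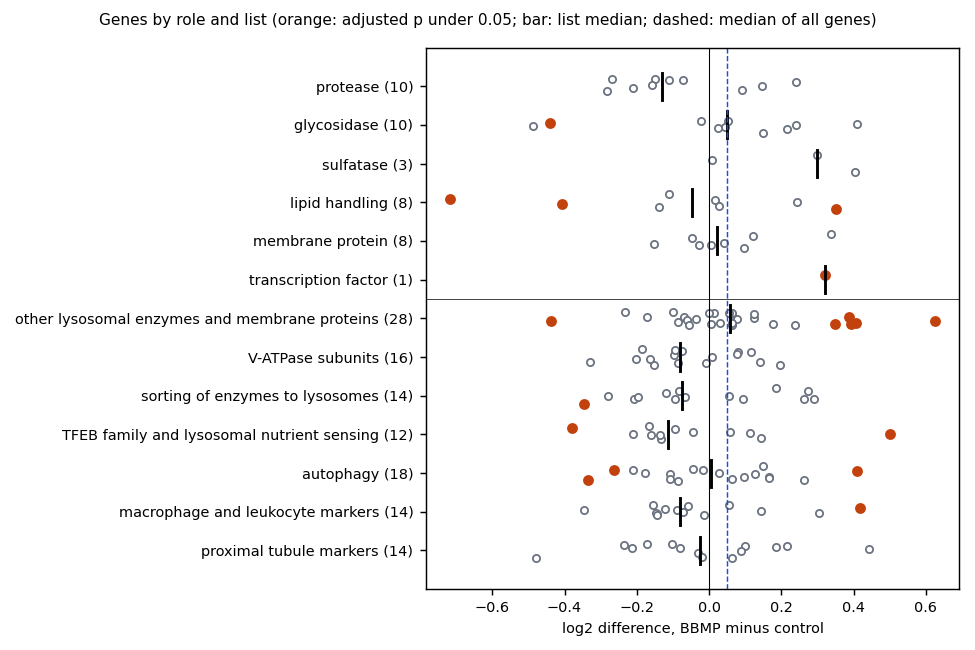
Log2 difference (BBMP minus control) of each tested gene by role and list, with the number tested in parentheses; orange points have an adjusted p under 0.05, black bars are list medians, the dashed line is the median of all genes, and vertical scatter within a line only separates points. Called genes lie on both sides of 0 among the members and in 3 of the 5 pathway lists, and none is called among the V-ATPase subunits.

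Lysosomal transcripts are also abundant in macrophages, so markers of the cells in cortex were read beside them. Of 14 tested macrophage and leukocyte markers, all well above background on all 6 arrays, 1 was higher and 0 lower. That was 7.14% called, against 17.9% of all genes. Of the 14 differences, 10 were below 0. The summed linear level of the 14, in units of the array's 75th percentile, was 173 to 212 in control and 149 to 201 in BBMP samples, so the groups overlapped. Such a sum weighs the brightest markers most, here Lyz2 (control mean 6.45) and Cd74 (5.41). Cd74 read 4.99, 6.09 and 5.14 on the control arrays, so the sum says little about the dimmer markers. Csf1r, the receptor of macrophage colony-stimulating factor, rose 1.34-fold (0.42 ± 0.084, SE; adjusted p = 0.0277), and its other probe gave 0.36. Fcer1g, an Fc receptor subunit, differed by 0.30 ± 0.13 (SE; adjusted p = 0.152). Of 14 proximal tubule markers, 0 were called. An unadjusted limma p under 0.05 was found for 11541 of all 31582 genes and for 3 of these 14 markers. The summed level of these markers was 2825 to 2906 in control and 2748 to 2833 in BBMP samples. Amn, amnionless, the partner of cubilin, differed by -0.24 (adjusted p = 0.0725).

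Of 5 podocyte markers, 2 were higher and 0 lower (40% called, against 17.9% of all genes). The differences were above 0 for 2 markers and below 0 for 3, with a median of -0.034 and Podxl lowest at -0.28. Of the 2 called, Synpo (synaptopodin) rose by 0.40 (adjusted p = 0.0192). With normexp Synpo differed by 0.16 and was not called (adjusted p = 0.0847). The summed level of the 5 was 31.6 to 37.5 in control and 30.1 to 35.02 in BBMP samples. Of 6 tested markers of the distal nephron and collecting duct, 0 were called and 1 had an unadjusted limma p under 0.05. That was Calb1 (calbindin), at -0.64 ± 0.19 (SE; adjusted p = 0.0671), and Slc4a1, the anion exchanger of intercalated cells, differed by 0.16 (adjusted p = 0.469). The summed level of this list was 377 to 580 in control and 412 to 550 in BBMP samples, and its brightest marker was Umod (control mean 8.38). The part of these cell types in the values of the lysosomal genes was not tested.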

How the data were processed

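Per the labels' protocols, RNA from renal cortex was labelled with Cy3, and the file headers name Agilent Feature Extraction 10.7.1.1 as the reader (10.7 in the submitters' processing notes). Per the file headers, the scanner files give linear intensity, with background removed from the processed signal, and flags scored 0 or 1. The authors' deposited table holds 1 ratio per probe and array, equal to the processed signal over the 75th percentile of 1 array; its column medians lay between 0.107 and 0.114. Its columns matched scanner files of the same group under other replicate numbers, so these numbers are uncertain and the groups are not.

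From the scanner files, each log2 processed signal was taken relative to the 75th percentile of that array over 61657 non-control probes. ERCC probes (84) and outlier probes (10) were not tested. A probe was tested if well above background on all 3 arrays of a group (42657 probes), and a gene was read from its brightest tested probe. Names came from matching unversioned RefSeq accessions to a GRCr8 table, for 12077 genes; the array design is based on rn4. No reads or counts exist for arrays, and 3 arrays per group limit the precision. BBMP was tested against control in limma 3.58.1 under R 4.3.3 (lmFit, eBayes, two-sided, no covariates), with Benjamini-Hochberg adjustment over all 31582 genes, or over probes where said; the code was tested on simulated data. The labels call the animals biological replicates. Deviations from the group means had correlations of -0.12, -0.082 and -0.068 between same-numbered samples of the groups, so no pairing by number was seen. They were 0.123 for control 1 with BBMP 2, 0.0697 for control 2 with BBMP 3 and 0.118 for control 3 with BBMP 1. As the numbers are uncertain, a pairing of the animals cannot be judged from these values.

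Members and lists were chosen with earlier results of these data known. Named were all members, with values in order of p for the first 30, and in each other list up to 4 called genes with the largest difference, or the 2 with the smallest p. Some genes that the rule chose are left out here. Alternatives covered background correction, normalization, the ratio table, filters, probes, moderation, replicate block, slide row and leaving out each array. Normexp used the median foreground with an offset of 50. Leaving ERCC and outlier probes out of the percentile, slide row 1 alone, and the mean of probes above background on all 6 arrays, were chosen after seeing the data. Plots were made with matplotlib 3.10.9 in Python 3.11.15.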

Additional observations from a re-analysis of the deposited data

How the results depend on the processing

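The median over members, 0.021 as reported, was -0.0044 with normexp, -0.0085 with quantile normalization, -0.056 with median scaling, 0.051 with the mean of all tested probes, 0.047 with the mean of the probes above background on all 6 arrays, and -0.095 with slide row as a covariate or with row 1 alone. Normexp moved the median of all genes by -0.11. The share of called genes that were higher was 57.1% as reported, 35.1% with median scaling, 36.3% with normexp, 46.6% with cyclic loess, 47.1% without the filter and 48.9% with quantile normalization. Members called higher, 2 as reported, were 4 with normexp and 4 with trend and robust moderation. Members called lower, 3 as reported, were 1 with either mean of probes. With the mean of all tested probes, Npc1 changed to 0.0055 and Atg14, of the autophagy list, to 0.046. Each of these means includes a probe above background on all BBMP arrays but on only 1 (Npc1) or 0 (Atg14) of 3 control arrays. With the mean of the probes above background on all 6 arrays, Npc1 was -0.069 (adjusted p = 0.569) and Atg14 -0.33 (adjusted p = 0.0169).

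Leaving out each array gave 0 to 3 members called higher, 0 to 2 called lower, a median over members of 0.00029 to 0.068, and 3 to 4018 genes called in all, against 5647. The low of 3 came without BBMP replicate 2. Counts without control replicates 1, 2 and 3 were 1828, 1551 and 4018, and without BBMP replicates 1 and 3 were 964 and 1635.

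With the replicate block, 0 members were called higher, 0 lower and 0 genes in all by limma, against 11 members and 9930 genes at an unadjusted p under 0.05. With slide row as a covariate the counts called were 0, 0 and 0 as well, against 10 members and 7288 genes at an unadjusted p under 0.05, and with row 1 alone they were also 0. The same 5 members were called with quantile normalization, cyclic loess, median scaling, the authors' ratio table, no filter, the filter over all 6 arrays, trend and robust moderation, and without ERCC and outlier probes in the percentile. Besides these 5, trend and robust moderation called 3 more members. Quantile normalization, cyclic loess, median scaling, the filter over all 6 arrays and the percentile without ERCC and outlier probes each called 1 more. Under normexp 4 of the 5 were called, without Manba (-0.31, adjusted p = 0.0512). Where a member was called in neither fit, its sign changed for 9 members with slide row as a covariate or row 1 alone, for 8 with median scaling and for 0 to 5 under each other alternative. The causes were not tested.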
